A study of Mus musculus with 9 samples.

Results

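Mitochondria carry their own ribosomes, which translate the few proteins that mitochondrial DNA still encodes, all of them core subunits of the respiratory chain or the ATP synthase. The ribosomal RNAs of these mitoribosomes are made inside the organelle, whereas every mitoribosomal protein is encoded in the nucleus, made on cytosolic ribosomes and imported. Proteins of the large subunit, where peptide bonds form, are named Mrpl, and proteins of the small subunit, which reads the mRNA, are named Mrps.

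The transcripts of these proteins were compared among the 3 dendritic cell (DC) subsets of the mouse spleen. Members were all genes whose name starts with Mrpl or Mrps followed by a digit, without names marked as pseudogenes. This gave 76 of the 39179 genes listed, with 47 in the large subunit and 29 in the small subunit. Conventional DC 1 (cDC1) are CD8-positive and known for cross-presentation to CD8 T cells, conventional DC 2 (cDC2) are CD8-negative and known for priming CD4 T cells, and plasmacytoid DC (pDC) are known as producers of type I interferon. All 3 groups were wild-type C57BL/6J cells at steady state, with no stimulus, and the mice were 6 to 12 weeks old as the study's methods describe them, with no age in the labels. There were 3 libraries in each group, and each library was a pool of cells from 15 to 17 mice, so the spread between libraries is the spread between pools and not between single animals.

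Between 15806597 and 32453789 reads were counted on genes in each library. Replicate 3 had the fewest counts in every subset and stood apart from the other replicates of its group, whose counts differed from theirs by a chi-square of 40.4 to 63.5 for each degree of freedom over genes, beside 10.1 to 19.0 between replicates 1 and 2. Markers of cDC1 and pDC were highest in the libraries so labelled. Summed markers of cDC1 (Cd8a, Xcr1, Clec9a, Batf3, Itgae and Cadm1) reached 3613 to 3984 CPM (counts scaled to a common library size) in cDC1 and at most 698 CPM elsewhere, and those of pDC (Bst2, Siglech, Tcf4, Ly6c2 and Ccr9) reached 11247 to 11727 CPM in pDC and at most 243 CPM elsewhere. Those of cDC2 (Itgam, Sirpa, Clec4a4, Cd209a and Csf1r) reached 1863 to 2058 CPM in cDC2, but also 1071 to 1182 CPM in pDC against 115 to 199 CPM in cDC1, and Cd209a was higher in pDC than in cDC2 (1.10, adjusted p = 0.00141). Summed macrophage and monocyte markers (Adgre1, Vcam1, C1qa, C1qb, Ly6c1 and Fcgr1) were higher in cDC2, at 412 to 565 CPM, than in cDC1, at 80.9 to 135 CPM, or in pDC, at 21.7 to 121 CPM. Of these 6, 4 were higher in cDC2 than in cDC1 at an edgeR adjusted p below 0.05, beside 12.7% of all genes. Over 18 alternatives described below, that on Adgre1 (listed as Emr1) held. Those on C1qa, Fcgr1 and C1qb were lost in 6, 4 and 2 of the 18, each without at least 1 cDC1 or cDC2 library. Between pDC and cDC2, 1 was lower in pDC and Ly6c1 was higher (log2 difference 4.84), beside 23.3% of all genes lower and 22.5% higher. The result on Ly6c1 was lost without cDC2 replicate 1 or 2 or pDC replicate 1. Plasma cell markers (Jchain, Sdc1, Xbp1, Prdm1 and Igkc), some of which pDC are known to express themselves, summed to 1551 to 2399.5 CPM in pDC, 148 to 174 CPM in cDC1 and 168 to 200.3 CPM in cDC2. Of these 5, 4 were higher in pDC than in either other subset, beside 24.3% of all genes higher against cDC1 and 22.5% against cDC2. Prdm1 went the other way, lower in pDC than in cDC2 (log2 difference -3.61) and not raised against cDC1 (-0.53). The part of other cells in the results below was not tested. In bulk samples, fewer cells of a type and less RNA per cell cannot be told apart.

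Of the 76 members, 75 had enough counts to be tested. Their mean levels, scaled by the trimmed mean of M-values (TMM), ran from 0.509 to 94.4 CPM in cDC1, with a median of 36.7 CPM, from 0.312 to 77.3 CPM in cDC2, with a median of 29.2 CPM, and from 0.229 to 91.9 CPM in pDC, with a median of 31.5 CPM. The median member had a coefficient of variation of 11.7% between libraries of a group, and 3 counts in a library corresponded to 0.0908 to 0.203 CPM, so nearly all members were far above the counting floor. The exception that could not be tested was Mrpl53, with 1, 1 and 0 counts in the cDC1 libraries, 3, 0 and 0 in cDC2 and 0, 3 and 0 in pDC. In the annotation, 88.0% of the exon sequence of Mrpl53 lies under exons of Gm42688 on the same strand, and every 75-base window of its main transcript occurs in that gene too.

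Fewer members differed than genes at large, and the differences were smaller. By edgeR's quasi-likelihood test with a Benjamini-Hochberg adjusted p below 0.05, 21 of 75 members (28.0%) differed between pDC and cDC1, 3 of them higher and 18 lower in pDC. Over all 13819 genes tested, 48.6% passed, 24.3% higher and 24.4% lower. Between pDC and cDC2, 12 members (16%) passed, 5 higher and 7 lower in pDC, against 45.8% of all genes, 22.5% higher and 23.3% lower. Between cDC2 and cDC1, 12 members (16%) passed, none higher and 12 lower in cDC2, against 24.4% of all genes, 12.7% higher and 11.7% lower. At an unadjusted p below 0.05, 1 member was higher in cDC2, and DESeq2 and limma-voom called 0 higher. The share of members called lower thus lay near the background in pDC against cDC1. It lay below the background in pDC against cDC2 (9.33% beside 23.3%) and somewhat above it in cDC2 against cDC1 (16% beside 11.7%). In every comparison the share called higher lay far below the background. A test for any difference among the 3 subsets called 23 members (30.7%), against 56.0% of all genes, and 46 members passed in none of the 3 pairwise comparisons.

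The sizes were modest. The median absolute log2 difference of members was 0.26 in pDC against cDC1, 0.19 in pDC against cDC2 and 0.19 in cDC2 against cDC1, whereas it was 0.63, 0.59 and 0.36 over all genes. Signed medians of the members were -0.19, -0.01 and -0.17, beside 0.02, -0.01 and 0.03 over all genes. Members below 0 numbered 53 of 75 in pDC against cDC1, 39 in pDC against cDC2 and 61 in cDC2 against cDC1. The same-numbered libraries share a date code in their labels. With the replicate number as a block, 35 members passed in pDC against cDC1, beside 58.6% of all genes. In pDC against cDC2, 20 members passed with the block, beside 55.5% of all genes. The blocked share of all genes was 35.6% in cDC2 against cDC1. The blocked test for any difference called 36 members, and its share of all genes was not tallied. When libraries were scaled by their totals alone, the median of all genes moved to 0.11 in pDC against cDC1 and to 0.14 in cDC2 against cDC1. The split of called members was then 7 higher and 11 lower in pDC against cDC1 and 1 higher and 4 lower in cDC2 against cDC1, and the members' medians stayed below that of all genes, at -0.09 and -0.06.

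The counts of calls also depended on single libraries. Without pDC replicate 2, 12 members passed in pDC against cDC1, 1 higher and 11 lower, and without cDC1 replicate 3 the number lower was 11. Without cDC1 replicate 2, 1 member was called higher there. Of all genes, 42.2%, 44% and 40.9% passed in either direction without these libraries in turn, against 48.6% with all libraries. In pDC against cDC2, 4 members were lower without cDC2 replicate 1 or pDC replicate 2. There 38.1% and 39.2% of all genes passed in either direction, against 45.8% with all libraries. In cDC2 against cDC1, all 6 libraries mattered: 6, 6 and 4 members passed without cDC1 replicates 1, 2 and 3, and 4, 2 and 7 without cDC2 replicates 1, 2 and 3. The share of all genes fell as well, from 24.4% with all libraries. It was 18.1%, 17.6% and 20.2% without these cDC1 replicates and 17.4%, 18.1% and 21.7% without these cDC2 replicates. With all replicate 3 libraries left out, 36 members passed in pDC against cDC1, 24 in pDC against cDC2 and 19 between the conventional subsets. Of all genes, 63%, 59.8% and 37.7% then passed in the same order.

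**Figure D1:**
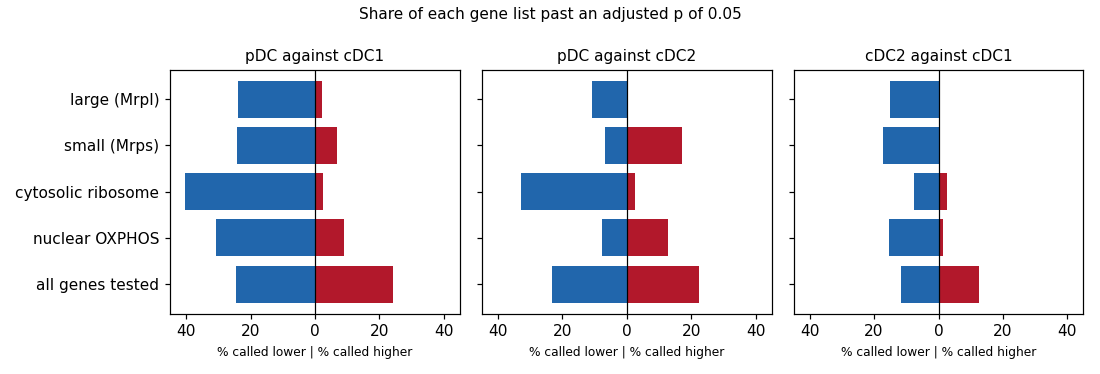
Bars show the percentage of genes tested in each list that passed an adjusted p of 0.05, lower to the left in blue and higher to the right in red, for the large and small subunit, the cytosolic ribosome, nuclear oxidative phosphorylation subunits and all genes tested. Small-subunit members were called higher in pDC than in cDC2 in 17.2% of cases and large-subunit members in 0%, beside 22.5% of all genes.

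Promoter sequences of 6 members whose results are described below are shown first, as bases upstream of the transcription start in RefSeq (GRCm38.p6), because nuclear respiratory factor 1 (NRF1) and the ETS factor GABP are textbook activators of genes for mitochondrial proteins. Capitals mark matches to the NRF1 motif GCGCNNGCGC and to the ETS core CCGGAAG, which reads CTTCCGG when it lies on the opposite strand. Mrps27 and Mrpl42 were lowest in pDC and highest in cDC1, Mrpl12 and Mrpl17 were lower in pDC than in cDC1, and Mrps6 and Mrps12 were higher in pDC than in cDC2. The windows lie at chr13:99344679-99344785 on the plus strand for Mrps27, chr10:95501950-95502199 on the minus strand for Mrpl42, chr11:120484387-120484636 on the plus strand for Mrpl12, chr7:105811088-105811337 on the minus strand for Mrpl17, chr16:92058086-92058335 on the plus strand for Mrps6 and chr7:28741822-28741967 on the minus strand for Mrps12. Those of Mrps27 and Mrps12 stop at the start of a neighbour that is transcribed the other way.
Mrps27: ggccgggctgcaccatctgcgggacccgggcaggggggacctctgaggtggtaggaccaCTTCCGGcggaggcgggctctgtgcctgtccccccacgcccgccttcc
Mrpl42: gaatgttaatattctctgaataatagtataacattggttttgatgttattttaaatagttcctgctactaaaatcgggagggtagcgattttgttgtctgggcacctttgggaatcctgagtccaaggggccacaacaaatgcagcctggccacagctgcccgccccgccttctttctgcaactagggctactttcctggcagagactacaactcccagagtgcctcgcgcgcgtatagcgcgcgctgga
Mrpl12: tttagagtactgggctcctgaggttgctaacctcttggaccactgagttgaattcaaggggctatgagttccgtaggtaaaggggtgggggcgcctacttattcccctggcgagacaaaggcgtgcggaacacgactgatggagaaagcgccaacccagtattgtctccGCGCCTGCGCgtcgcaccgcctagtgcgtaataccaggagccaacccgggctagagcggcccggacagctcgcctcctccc
Mrpl17: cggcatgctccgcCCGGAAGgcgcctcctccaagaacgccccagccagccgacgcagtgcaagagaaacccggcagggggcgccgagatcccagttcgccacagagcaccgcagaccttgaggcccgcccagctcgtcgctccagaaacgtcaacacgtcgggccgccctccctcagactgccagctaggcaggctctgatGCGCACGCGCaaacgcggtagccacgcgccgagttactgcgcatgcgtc
Mrps6: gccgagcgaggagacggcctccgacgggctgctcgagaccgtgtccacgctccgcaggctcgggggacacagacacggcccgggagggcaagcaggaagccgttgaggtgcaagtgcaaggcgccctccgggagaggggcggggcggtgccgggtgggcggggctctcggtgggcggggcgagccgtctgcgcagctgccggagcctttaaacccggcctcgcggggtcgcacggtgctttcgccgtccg
Mrps12: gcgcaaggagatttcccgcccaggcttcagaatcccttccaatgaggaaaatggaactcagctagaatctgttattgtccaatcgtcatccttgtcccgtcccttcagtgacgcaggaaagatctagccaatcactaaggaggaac

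Mrps27 held 1 ETS core, Mrpl12 held 1 NRF1 motif, Mrpl17 held 1 of each, and the windows of Mrpl42, Mrps6 and Mrps12 held neither. A promoter was found for 67 members. Within 250 bases upstream and on either strand, 9 of them (13.4%) held the NRF1 motif and 17 (25.4%) the ETS core, against 12% and 15.9% of the 9381 genes tested that have a promoter sequence, and 5.60% and 7.80% of all 27025 promoters. The NRF1 motif was found in 8 of 41 large-subunit promoters (19.5%) and in 1 of 26 small-subunit promoters (3.80%), and the ETS core in 11 (26.8%) and 6 (23.1%). Of 16 members lower in pDC than in cDC1, 6 (37.5%) held the ETS core and 2 (12.5%) the NRF1 motif. Of 42 members that passed in no comparison, 8 (19.0%) held the ETS core and 6 (14.3%) the NRF1 motif. These are matches of letters and not measured binding.

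Mrps27 (ENSMUSG00000041632, chromosome 13), a pentatricopeptide repeat protein of the small subunit, had the largest difference of any member tested in pDC against cDC1. Its level was 42.5, 43.5 and 51.3 CPM in the cDC1 libraries, 23.6, 24.6 and 26.6 CPM in cDC2 and 14.4, 12.9 and 14.1 CPM in pDC. No library of a subset overlapped with another subset, and the order was cDC1, then cDC2, then pDC. The level in pDC was 3.31-fold below cDC1 (log2 difference -1.73 ± 0.13, SE; edgeR adjusted p = 2.87e-06) and 1.80-fold below cDC2 (-0.85 ± 0.12, adjusted p = 0.000345), and cDC2 was 1.84-fold below cDC1 (-0.88 ± 0.12, adjusted p = 0.00062). All 3 calls held under each of 18 alternatives that kept the threshold, namely other tools, scalings, filters and sample sets, a replicate block and the removal of libraries. A noncoding gene on the opposite strand, 6430562O15Rik, covers 24.2% of the exon sequence of Mrps27, and the strand setting of the counting is not given in the sources used here.

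Beside Mrps27, Ptcd2 starts 108 bases away on the other strand. Ptcd2 encodes another pentatricopeptide repeat protein, which acts on mitochondrial RNA, and was chosen after its values were seen. Its level was 152, 150.0 and 192 CPM in cDC1, 75.5, 75.8 and 100.5 CPM in cDC2 and 41.7, 36.3 and 58.4 CPM in pDC, so that these groups did not overlap either. In the edgeR fit Ptcd2 differed by -1.86 (log2, adjusted p = 4.09e-05) in pDC against cDC1, by -0.89 (adjusted p = 0.00454) in pDC against cDC2 and by -0.97 (adjusted p = 0.00513) in cDC2 against cDC1, close to the values of Mrps27 in size and order. Among the members, 18 had such a head-to-head neighbour within 300 bases that was itself tested. For 2 of these 18, Mrps27 with Ptcd2 and Mrpl27 with Eme1, both genes passed in the same comparison. Of all members 28.0%, 16% and 16% passed in the 3 comparisons, and of all genes 48.6%, 45.8% and 24.4%. How often 2 unrelated genes would both pass was not tested, so the count of 2 is not read as a link between neighbours. Mrpl27 was at 18.7, 17.7 and 16.9 CPM in cDC1 and 14.4, 13.8 and 9.37 CPM in pDC (-0.50, adjusted p = 0.0489), and Eme1, a DNA repair nuclease subunit, was at 5.43, 7.09 and 3.39 CPM in cDC1 and 0.848, 0.456 and 0 CPM in pDC (-3.48, adjusted p = 0.00295). The call on Mrpl27 was lost in 10 of 18 alternatives, among them without any cDC1 library, without cDC2 replicate 1 or 2 and without pDC replicate 2 or 3, with adjusted p up to 0.139. Mrps11 and Mrpl46, which start 42 bases apart, are both members and are each counted among the 18, and neither passed in any comparison.

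Mrpl42 (ENSMUSG00000062981, chromosome 10), a protein of the large subunit, stood next. It was at 80.4, 84.7 and 118 CPM in cDC1, the highest mean of all members there, at 40.4, 39.3 and 50.7 CPM in cDC2 and at 35.0, 28.9 and 24.3 CPM in pDC. The subsets did not overlap and had the same order as in Mrps27. Mrpl42 was 3.21-fold lower in pDC than in cDC1 (-1.68 ± 0.19, adjusted p = 6.59e-05) and 2.17-fold lower in cDC2 than in cDC1 (-1.12 ± 0.19, adjusted p = 0.00209). Both calls held under all 18 alternatives. The difference between pDC and cDC2 was smaller (-0.56 ± 0.19, adjusted p = 0.036), and over the alternatives its adjusted p ran from 0.0185 to 0.116. It passed 0.05 no longer without cDC2 replicate 1 (0.0585), cDC2 replicate 3 (0.116), pDC replicate 2 (0.0817) or pDC replicate 3 (0.101).

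**Figure D2:**
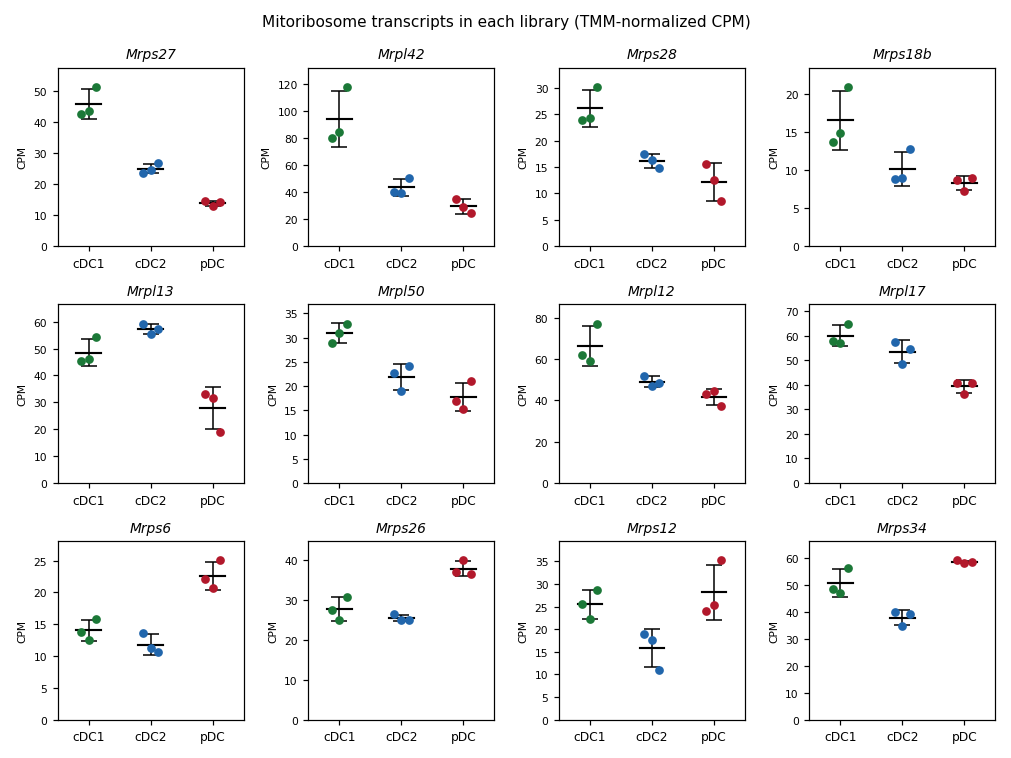
Points show the level of 12 named members in each of the 9 libraries in TMM-normalized CPM, with the mean as a long line and the SD as bars (n = 3 per subset). The upper rows hold members that were lower in pDC than in cDC1, such as Mrps27 at 12.9 to 14.4 CPM in pDC and 42.5 to 51.3 CPM in cDC1, and the lowest row holds members raised in pDC relative to cDC2.

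Further members of the small subunit were lower in pDC than in cDC1. Mrps28 was at 23.9, 24.4 and 30.3 CPM in cDC1, 17.5, 16.4 and 14.8 CPM in cDC2 and 15.5, 12.5 and 8.48 CPM in pDC. pDC and cDC2 overlapped, and both lay below cDC1, by 1.10 on the log2 scale for pDC (-1.10 ± 0.22, adjusted p = 0.00214) and by less for cDC2 (-0.69 ± 0.21, adjusted p = 0.0425). Mrps18b was at 13.7, 14.9 and 20.9 CPM in cDC1, 8.80, 8.89 and 12.7 CPM in cDC2 and 8.63, 7.20 and 8.95 CPM in pDC, with a difference of -0.99 ± 0.23 between pDC and cDC1 (adjusted p = 0.00505). For Mrps18b, 60.5% of the 75-base windows of the main transcript also occur in other genes, Gm16279 foremost, so that reads could have been divided between them. Mrps18a, Mrps18b and Mrps18c are paralogs that occupy different sites of the mitoribosome, with Mrps18a in the large subunit despite its name. Mrps18a was at 29.6, 25.7 and 24.0 CPM in cDC1 and 28.1, 28.9 and 31.8 CPM in pDC (0.16, adjusted p = 0.414), and Mrps18c was at 25.5, 22.9 and 28.8 CPM in cDC1 and 28.1, 18.0 and 28.8 CPM in pDC (-0.04, adjusted p = 0.881). Mrps25 and Mrps7 were also lower in pDC than in cDC1, by -0.66 (adjusted p = 0.00459) and -0.54 (adjusted p = 0.0102), and the calls on Mrps28, Mrps18b, Mrps25 and Mrps7 in this comparison held under all 18 alternatives. Of Mrps25, 67.3% of exon windows are shared with other genes and 69.8% of exon sequence lies opposite Nr2c2.

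In the large subunit, Mrpl13, Mrpl50, Mrpl12 and Mrpl17 were lower in pDC than in cDC1 under all 18 alternatives, although none of them differed by 1 or more on the log2 scale. Mrpl13 was at 45.4, 46.0 and 54.2 CPM in cDC1, 59.3, 55.5 and 57.5 CPM in cDC2 and 33.0, 31.8 and 19.0 CPM in pDC. Unlike Mrps27 and Mrpl42, it was highest in cDC2, where no library overlapped with cDC1 although that difference did not pass (0.24 ± 0.19, adjusted p = 0.422). Mrpl13 was 2.05-fold lower in pDC than in cDC2 (-1.04 ± 0.19, adjusted p = 0.00156) and 1.73-fold lower than in cDC1 (-0.79 ± 0.19, adjusted p = 0.00667). Mrpl12, the stalk protein of the large subunit, which also binds the mitochondrial RNA polymerase, was at 62.2, 59.1 and 77.3 CPM in cDC1, 52.0, 47.0 and 48.3 CPM in cDC2 and 42.9, 44.6 and 37.2 CPM in pDC. All pDC libraries lay below all others in Mrpl12, and the difference passed against cDC1 (-0.67 ± 0.13, adjusted p = 0.00201) and not against cDC2 (-0.24 ± 0.13, adjusted p = 0.164). Mrpl17 was at 58.0, 57.2 and 64.9 CPM in cDC1, 57.5, 48.3 and 54.6 CPM in cDC2 and 40.9, 36.3 and 40.9 CPM in pDC. cDC1 and cDC2 overlapped there, and pDC lay below both (-0.61 ± 0.11, adjusted p = 0.0015, and -0.44 ± 0.11, adjusted p = 0.00953). For Mrpl50 the difference between pDC and cDC1 was -0.80 ± 0.16 (adjusted p = 0.00205).

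Another 3 large-subunit members were lower in pDC than in cDC2. Mrpl33 was at 74.9, 69.0 and 73.0 CPM in cDC2, 55.6, 49.1 and 54.8 CPM in pDC and, between them, 60.4, 57.8 and 63.9 CPM in cDC1. The 3 subsets did not overlap, but only pDC against cDC2 passed (-0.44 ± 0.10, adjusted p = 0.00476), and that call held under all 18 alternatives. Mrpl45, which anchors the mitoribosome to the inner membrane, was at 50.6, 46.3 and 50.7 CPM in cDC2 and 37.1, 37.3 and 39.1 CPM in pDC (-0.38 ± 0.11, adjusted p = 0.0183), a call whose adjusted p ran from 0.00521 to 0.0644 over the alternatives and which was lost without cDC2 replicate 1 (0.0644), pDC replicate 1 (0.0594) or pDC replicate 2 (0.0506). The third was Mrpl42, described above. In the small subunit, Mrps25 was at 31.6, 25.03 and 31.0 CPM in cDC2 and 23.9, 19.5 and 22.4 CPM in pDC (-0.41, adjusted p = 0.0464), and that call was kept in only 6 of 18 alternatives, with adjusted p from 0.0164 to 0.149. It was lost without any 1 of cDC1 replicate 1 or 2, cDC2 replicate 1 or 3 and the 3 pDC libraries.

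All 5 members raised in pDC relative to cDC2 were of the small subunit, namely Mrps6, Mrps12, Mrps34, Mrps26 and Mrps35. Mrps6 (ENSMUSG00000039680, chromosome 16) was at 13.8, 12.6 and 15.8 CPM in cDC1, 13.6, 11.2 and 10.6 CPM in cDC2 and 22.2, 20.7 and 25.04 CPM in pDC. cDC1 and cDC2 overlapped, and every pDC library lay above both, 1.61-fold above cDC1 (0.69 ± 0.16, adjusted p = 0.00592) and 1.91-fold above cDC2 (0.93 ± 0.16, adjusted p = 0.00109). Mrps6 calls held under all 18 alternatives, with differences below 1 on the log2 scale, and 19.9% of its exon sequence lies under Slc5a3 and Gm49711 on the same strand. Mrps26 was at 27.5, 24.9 and 30.8 CPM in cDC1, 26.4, 24.9 and 25.03 CPM in cDC2 and 37.0, 39.9 and 36.4 CPM in pDC, again with pDC above and the cDC overlapping. The difference was 0.57 ± 0.12 against cDC2 (adjusted p = 0.00291) and 0.45 ± 0.12 against cDC1 (adjusted p = 0.0104). The latter ran from 0.00144 to 0.0519 over the alternatives and was lost without cDC1 replicate 2 (0.0518) or pDC replicate 2 (0.0519).

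Mrps12, a protein of the decoding centre, was at 18.8, 17.5 and 11.0 CPM in cDC2 and 24.1, 25.3 and 35.2 CPM in pDC, with cDC1 at 25.6, 22.2 and 28.6 CPM. pDC and cDC1 overlapped and cDC2 lay below both, which passed against pDC (0.83 ± 0.23, adjusted p = 0.0138) and not against cDC1 (-0.69 ± 0.23, adjusted p = 0.0554). Its head-to-head neighbour Sars2, the mitochondrial seryl-tRNA synthetase, starts 147 bases away, was at 11.9, 13.2 and 17.4 CPM in cDC2 and 10.5, 12.8 and 10.8 CPM in pDC, and did not pass (-0.32, adjusted p = 0.215). Mrps34 was at 39.97, 34.8 and 39.1 CPM in cDC2, 48.7, 47.1 and 56.5 CPM in cDC1 and 59.2, 58.2 and 58.6 CPM in pDC. No subsets overlapped, with pDC 1.55-fold above cDC2 (0.63 ± 0.11, adjusted p = 0.00113) and cDC2 below cDC1 (-0.42 ± 0.11, adjusted p = 0.0202). In Mrps34, 69.4% of exon windows are shared, chiefly with Nme3 and Mapk8ip3, which overlap it. Mrps35 was at 25.98, 25.2 and 28.5 CPM in cDC2 and 34.0, 37.4 and 37.6 CPM in pDC (0.45 ± 0.13, adjusted p = 0.0179), with adjusted p from 0.00441 to 0.0618 over the alternatives, and above 0.05 without cDC2 replicate 1 (0.0615), cDC2 replicate 2 (0.0618) or pDC replicate 2 (0.0547).

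In the large subunit 1 member was higher in pDC, and only against cDC1. Mrpl24 was at 66.2, 67.4 and 77.9 CPM in cDC1, 88.9, 78.0 and 65.1 CPM in cDC2 and 98.6, 90.4 and 86.6 CPM in pDC (0.38 ± 0.13 against cDC1, adjusted p = 0.0368). The call was kept in 11 of 18 alternatives, with adjusted p from 0.0047 to 0.127, and was lost without cDC1 replicate 1 (0.127) or 2 (0.11), cDC2 replicate 2 (0.066) or pDC replicate 1 (0.117) or 2 (0.0891). The cDC2 libraries spanned the range of cDC1 and part of that of pDC. Of the 75-base windows of the main transcript of Mrpl24, 39.1% also occur in other genes, Rrnad1 foremost, and 26.3% of its exon sequence lies opposite Rrnad1.

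All 12 members that differed between the conventional subsets were lower in cDC2. Beside Mrps27 and Mrpl42, the largest differences with at least 100 counts were in Mrps18b (-0.70, adjusted p = 0.0483), Mrps28 (-0.69, adjusted p = 0.0425), Mrpl41 (-0.67, adjusted p = 0.02), Mrpl4 (-0.59, adjusted p = 0.0411), Mrpl16 (-0.59, adjusted p = 0.0261) and Mrpl18 (-0.52, adjusted p = 0.0269). Mrpl18, among the most abundant members, was at 91.3, 91.5 and 87.8 CPM in cDC1, 68.1, 65.8 and 54.6 CPM in cDC2 and 77.7, 76.2 and 55.4 CPM in pDC. Mrpl41 was at 24.2, 25.9 and 34.1 CPM in cDC1, 19.7, 17.0 and 15.9 CPM in cDC2 and 24.8, 20.3 and 27.2 CPM in pDC, so that cDC2 was lowest and pDC overlapped with cDC1. Only Mrps27 and Mrpl42 kept this call under all 18 alternatives. The other 10 lost it in 2 to 10 of them, each without at least 1 of the 6 cDC libraries, with adjusted p of at most 0.163, and none changed direction.

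**Figure D3:**
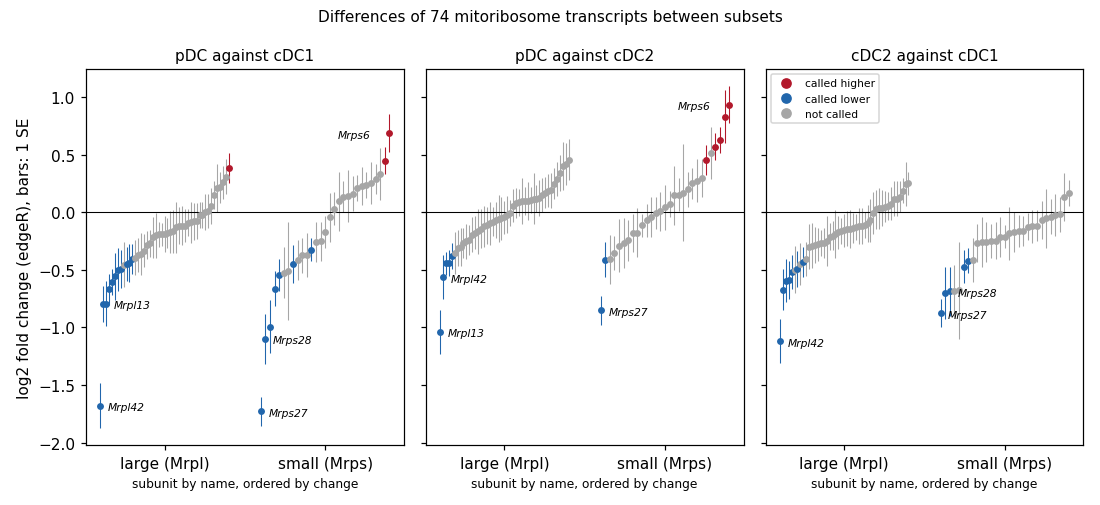
Each point is the edgeR log2 difference of a member, with 1 SE as a bar, grouped by subunit and ordered by size, for the 3 comparisons, and red and blue mark members called higher and lower. Mrpl23, near the counting floor, and Mrpl53, not tested, are left out, and Mrps27 and Mrpl42 lie lowest in pDC against cDC1 at -1.73 and -1.68.

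The subunits were then compared as groups. In pDC against cDC1, 12 of 46 large-subunit members passed, 1 higher and 11 lower, and 9 of 29 small-subunit members, 2 higher and 7 lower. In pDC against cDC2 the large subunit had 0 higher and 5 lower and the small subunit 5 higher and 2 lower, and in cDC2 against cDC1 both had falls only, 7 and 5. The small subunit's share higher in pDC than in cDC2, 17.2%, lay below the 22.5% of all genes. There 10.9% of the large and 6.9% of the small subunit were lower, beside 23.3% of all genes. In pDC against cDC1 the shares lower were 23.9% and 24.1%, beside 24.4%. In cDC2 against cDC1 they were 15.2% and 17.2%, beside 11.7%. The 0 large-subunit members higher in pDC than in cDC2 by edgeR became 2 at an unadjusted p below 0.05, 1 by DESeq2 and 0 by limma-voom. Medians of the log2 differences were -0.19 for the large and -0.17 for the small subunit in pDC against cDC1, -0.05 and 0.04 in pDC against cDC2, and -0.16 and -0.21 in cDC2 against cDC1. The large-minus-small difference of these medians was -0.02, -0.09 and 0.05, beside an SD over the 3 same-numbered pairs of libraries of 0.0513, 0.0133 and 0.0399. Taken within the pairs, it was -0.0318, -0.0552 and -0.13 in pDC against cDC1, -0.0422, -0.0641 and -0.0661 in pDC against cDC2 and 0.0661, 0.0139 and 0.0922 in cDC2 against cDC1. Each comparison thus had 1 sign in its 3 pairs, while the fitted value lay outside the range of the pairs in pDC against cDC1 and in pDC against cDC2, where it turned to 0.02 without cDC2 replicate 3. Mean levels were highest in pDC for 9 of 46 large-subunit and 13 of 29 small-subunit members, an order that for most of them was within the spread between libraries.

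Summed over members, the large subunit reached 1831, 1805 and 2189 CPM in cDC1, 1739, 1592 and 1783 CPM in cDC2 and 1669.8, 1585 and 1736 CPM in pDC. The small subunit reached 868, 837 and 1014 CPM in cDC1, 775, 727 and 811 CPM in cDC2 and 822, 781 and 859 CPM in pDC. For the large subunit every cDC1 library lay above every other library, whereas for the small subunit pDC overlapped with both other subsets. The ratio of the sums was 2.11, 2.16 and 2.16 in cDC1 (2.14 ± 0.0292, SD), 2.24, 2.19 and 2.20 in cDC2 (2.21 ± 0.0291) and 2.03, 2.03 and 2.02 in pDC (2.03 ± 0.00529), with no overlap. An exact two-sided permutation test over libraries gave p = 0.1 for each pair of subsets, the smallest that 3 against 3 allows. Single genes weigh on such sums. Mrpl42, part of the large-subunit sum, had a mean of 94.4 CPM in cDC1, 43.5 CPM in cDC2 and 29.4 CPM in pDC. The ratio without Mrpl42 was not computed, so the ratio is not read as a trait of the whole subunit. With Mrps30 and Mrps18a counted in the large subunit, where structures place them, and Mrps36 left out, since it is a component of the 2-oxoglutarate dehydrogenase complex, the ratio was 2.38 to 2.43 in cDC1, 2.48 to 2.55 in cDC2 and 2.26 to 2.29 in pDC. Without 19 members whose exons share sequence or overlap other exons, a choice made after seeing the data, the ratio in pDC (2.13 to 2.15) was still below cDC1 (2.34 to 2.499) and cDC2 (2.31 to 2.39), but cDC1 and cDC2 overlapped and the order of their means turned.

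**Figure D4:**
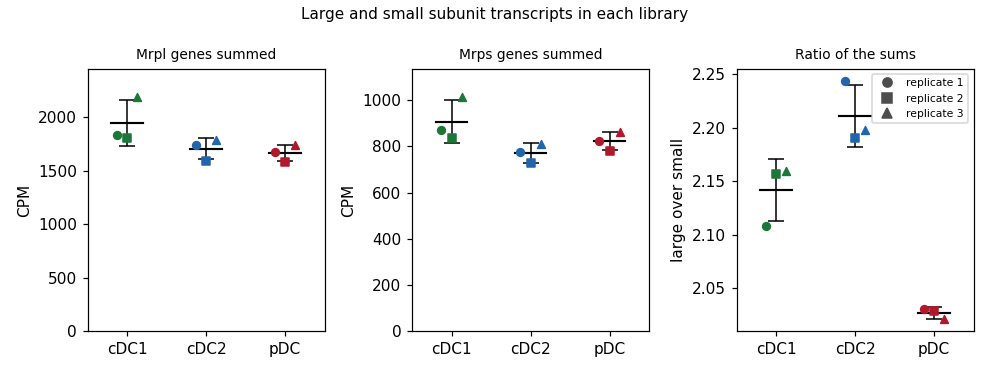
Summed CPM of the large-subunit and small-subunit members and the ratio of the sums are shown for each library (circle, square and triangle for replicates 1, 2 and 3), with mean and SD (n = 3). The ratio axis does not start at 0, and pDC libraries sit at 2.02 to 2.03, below cDC1 at 2.11 to 2.16 and cDC2 at 2.19 to 2.24.

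Levels between members were compared per kilobase of exon. Mrpl33, at a mean of 62.1 CPM over all libraries, had no matched exon length and was not ranked, so its place is not known. Among the members ranked, Mrpl54 (55.9 CPM per kilobase, mean of all libraries), Mrpl18 (53.1) and Mrpl52 (52.6) were highest, and none of them passed in a comparison with pDC. Lowest among members ranked were Mrpl23 (0.0717 CPM per kilobase), Mrps10 (1.56) and Mrps36 (1.77). Per kilobase of the main transcript instead, Mrpl52 was first (139.6) and Mrpl42 second (83.7), Mrps10 rose to 12.4, and Mrpl23 (0.506) and Mrps36 (3.22) stayed lowest. Mrpl23 was at 0.437, 0.751 and 0.339 CPM in cDC1, 0.446, 0.490 and 0 CPM in cDC2 and 0.484, 0.203 and 0 CPM in pDC, and 75.4% of the windows of its main transcript occur in other genes as well, Mrpl23-ps1 foremost. Mrps30 was at 39.1, 38.4 and 46.3 CPM in cDC1 and 35.8, 28.9 and 30.5 CPM in pDC and did not pass (-0.37 ± 0.15, adjusted p = 0.0625), nor did Mrps36, at 2.62, 2.96 and 3.18 CPM in cDC1 and 1.91, 1.77 and 2.47 CPM in pDC. Split by ancestry, 14 of 47 members with a bacterial homologue (29.8%) and 7 of 27 specific to mitochondria (25.9%) passed in pDC against cDC1, with medians of -0.19 and -0.13. In pDC against cDC2 these were 5 (10.6%) and 7 (25.9%), and in cDC2 against cDC1 7 (14.9%) and 5 (18.5%). Over all genes 48.6%, 45.8% and 24.4% passed. Not every member tested was placed in a class, and the difference between classes was not tested.

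Mitoribosomal proteins with other names gave 4 of 6 lower in pDC than in cDC1, where 24.4% of all genes were lower. Dap3, the GTP-binding protein of the small-subunit head, was at 38.7, 43.0 and 47.9 CPM in cDC1, 45.1, 43.9 and 46.3 CPM in cDC2 and 30.0, 32.5 and 26.9 CPM in pDC. pDC lay below both, by -0.53 (adjusted p = 0.00461) and -0.60 (adjusted p = 0.00255). Chchd1 (-0.58, adjusted p = 0.00302), Ptcd3 (-0.52, adjusted p = 0.00962) and Aurkaip1 (-0.30, adjusted p = 0.0396), also of the small subunit, fell in pDC against cDC1, and Chchd1 fell against cDC2 too (-0.34, adjusted p = 0.0457). Ict1, a peptidyl-tRNA hydrolase built into the large subunit, went the other way against cDC2, with 34.6, 36.3 and 47.2 CPM in pDC and 24.1, 22.3 and 26.5 CPM in cDC2 (0.70, adjusted p = 0.0126). Over 18 alternatives, the calls on Dap3, Ptcd3, Ict1 and that on Chchd1 against cDC1 held. Chchd1 against cDC2 was lost in 10 (adjusted p 0.0192 to 0.172), among them without cDC1 replicate 1 or 2, cDC2 replicate 1 or 3 or any pDC library, and Aurkaip1 in 9 (0.0173 to 0.127), among them without cDC1 replicate 1 or 3, cDC2 replicate 1 or pDC replicate 1 or 3. Gadd45gip1 passed in none (-0.14, adjusted p = 0.396, in pDC against cDC1), and no gene of this list passed in cDC2 against cDC1 by edgeR, DESeq2 or limma-voom, with 0 at an unadjusted p below 0.05. Dap3 and Chchd1 thus moved against cDC2 in the direction opposite to the 5 small-subunit members that were higher in pDC.

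Of 26 genes for mitoribosome assembly and ribosomal RNA modification, 4 (15.4%) passed in pDC against cDC1 (1 higher, 3 lower), against 48.6% of all genes, 5 (19.2%) in pDC against cDC2 (4 higher, 1 lower), against 45.8%, and none in cDC2 against cDC1, where DESeq2 and limma-voom also called 0 and 0 had an unadjusted p below 0.05. Fastkd2, which binds the large ribosomal RNA, was at 17.0, 13.4 and 17.2 CPM in cDC1, 14.2, 13.3 and 19.8 CPM in cDC2 and 7.08, 7.05 and 2.89 CPM in pDC (-1.47, adjusted p = 0.00385, and -1.46, adjusted p = 0.00428). Rbfa, a maturation factor of the small subunit, was the reverse, at 54.5, 55.5 and 61.4 CPM in cDC1, 51.0, 49.3 and 49.2 CPM in cDC2 and 66.7, 78.7 and 83.9 CPM in pDC (0.42, adjusted p = 0.0115, and 0.62, adjusted p = 0.00145). In both genes pDC did not overlap with the other subsets. Mterfd1 (-0.93, adjusted p = 0.0263) and Noa1 (-0.66, adjusted p = 0.00735) were also lower in pDC than in cDC1. Mterfd2 (0.75, adjusted p = 0.0124), Malsu1 (0.73, adjusted p = 0.0347) and Ngrn (0.51, adjusted p = 0.0403) were higher in pDC than in cDC2. Calls were lost for Rbfa against cDC1 without cDC1 replicate 1 (adjusted p 0.0523, within 0.00311 to 0.0523 over 18 alternatives) and for Mterfd1 without cDC1 replicate 1 or 2 (0.00162 to 0.0762). They were lost for Malsu1 without cDC1 replicate 1, cDC2 replicate 2 or 3 or pDC replicate 2 or 3 (0.0157 to 0.0978) and for Ngrn without cDC1 replicate 1, any cDC2 library or pDC replicate 1 or 2 (0.00284 to 0.136).

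Among 15 translation factors, 2 (13.3%) were lower in pDC than in cDC1, beside 24.4% of all genes. None passed in pDC against cDC2 (0 also at an unadjusted p below 0.05, by DESeq2 and by limma-voom), where 45.8% of all genes did. In cDC2 against cDC1, 2 (13.3%) were lower, beside 11.7% of all genes. In both comparisons with cDC1 the 2 were the elongation factor Gfm1 (-0.68, adjusted p = 0.000445, and -0.45, adjusted p = 0.011) and the initiation factor Mtif3 (-0.63, adjusted p = 0.0193, and -0.93, adjusted p = 0.00573). Of 17 mitochondrial aminoacyl-tRNA synthetases, 4, 2 and 1 passed in the 3 comparisons. These were 23.5%, 11.8% and 5.88%, below the 48.6%, 45.8% and 24.4% of all genes. Wars2, for tryptophan, was at 12.02, 13.01 and 11.2 CPM in cDC1, 10.7, 9.28 and 7.97 CPM in cDC2 and 28.5, 30.4 and 27.7 CPM in pDC, that is 2.39-fold and 3.09-fold higher in pDC (1.26, adjusted p = 9.01e-05, and 1.63, adjusted p = 1.79e-05). Vars2 was higher in pDC than in cDC1 (0.91, adjusted p = 0.00549) and Nars2 higher than in cDC2 (0.77, adjusted p = 0.0487), while Rars2 (-0.69, adjusted p = 0.00114) was lower than in cDC1. Rars2 was also lower in cDC2 than in cDC1 (-0.41, adjusted p = 0.0326), a call lost in 8 alternatives (0.00398 to 0.122), among them without any cDC1 library, cDC2 replicate 1 or 2 or pDC replicate 1. Mtif3 lost its call in pDC against cDC1 without cDC1 replicate 1 or 2 or pDC replicate 1 (adjusted p 0.000804 to 0.0875 over 18 alternatives), and Nars2 lost its call in 16 alternatives (0.0179 to 0.138), among them without any 1 library other than pDC replicate 1.

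In the list of 7 genes for mitochondrial transcription, Tefm was lower in pDC than in cDC1 (-0.87, adjusted p = 0.00547), and Mterfd3, at 0.638 to 6.18 CPM over all libraries, was higher in pDC than in cDC2 (2.19, adjusted p = 0.00144) and lower in cDC2 than in cDC1 (-1.64, adjusted p = 0.0135, running from 0.000385 to 0.0576 over 18 alternatives, lost without cDC1 replicate 2 or cDC2 replicate 1). Among 11 nuclear regulators tested, Myc was at 13.5, 13.3 and 11.0 CPM in cDC1, 18.2, 19.6 and 20.4 CPM in cDC2 and 2.27, 1.27 and 2.42 CPM in pDC. Myc, a growth-linked transcription factor, was thus 6.32-fold lower in pDC than in cDC1 (-2.66, adjusted p = 1.32e-05) and 9.72-fold lower than in cDC2 (-3.28, adjusted p = 3.87e-06). Its partner Max was higher in pDC (0.48, adjusted p = 0.00418, and 0.47, adjusted p = 0.00476). Ppargc1b, a coactivator of mitochondrial genes, was at 2.78, 3.65 and 3.00 CPM in pDC and at most 0.510 CPM elsewhere (3.47, adjusted p = 0.00923, and 3.31, adjusted p = 0.0107). Its relative Ppargc1a was at 0 to 0.146 CPM in cDC1, 0.606 to 2.92 CPM in cDC2 and 0.726 to 1.24 CPM in pDC, higher in pDC (3.67, adjusted p = 0.009) and in cDC2 (4.31, adjusted p = 0.00788) than in cDC1, and the cDC1 libraries lay near the counting floor. Nrf1 passed in neither pDC comparison (-0.11, adjusted p = 0.576, and -0.33, adjusted p = 0.0947). Among GABP subunits, Gabpb1 was lower in pDC than in cDC2 (-0.48, adjusted p = 0.0442), a call lost in 8 of 18 alternatives (0.00191 to 0.128), among them without cDC1 replicate 1, any cDC2 library or pDC replicate 1 or 2, and Gabpa passed in neither (0.34, adjusted p = 0.0547, and 0.19, adjusted p = 0.275).

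The products of the mitoribosome are encoded by mitochondrial DNA, and of 11 such mRNAs tested, 4 were higher and none lower in pDC than in cDC1, and 6 were higher and none lower than in cDC2. These were 36.4% and 54.5%, beside 24.3% and 22.5% of all genes higher. The counts of 0 lower held at an unadjusted p below 0.05, by DESeq2 and by limma-voom. mt-Nd4, a complex I subunit, was at 1148, 1088 and 1061 CPM in cDC1, 1457, 1267 and 1093 CPM in cDC2 and 2448, 2219.8 and 2319 CPM in pDC, 2.12-fold and 1.83-fold higher in pDC (1.08, adjusted p = 2.5e-05, and 0.87, adjusted p = 0.000122). mt-Nd5 (0.80 and 0.80, adjusted p = 2.93e-05 and 3.28e-05), mt-Nd2 (0.56 and 0.42, adjusted p = 0.00536 and 0.0235) and mt-Cytb (0.52 and 0.53, adjusted p = 0.00757 and 0.00753) had the same direction. For mt-Nd2 the call against cDC2 was lost without cDC2 replicate 1 or 3 or pDC replicate 3 (adjusted p 0.0084 to 0.077 over 18 alternatives). mt-Nd1 was also higher in pDC than in cDC2. Its call was lost in 6 of 18 alternatives (0.00273 to 0.107), among them without any cDC2 library or pDC replicate 3. The calls on mt-Nd4, mt-Nd5 and mt-Cytb held under all 18 in both comparisons. mt-Co1 was lower in cDC2 than in cDC1 (-0.40, adjusted p = 0.0194, and 0.0505 without cDC2 replicate 2). It was also higher in pDC than in cDC2 (0.38, adjusted p = 0.0145) and at -0.02 (adjusted p = 0.865) against cDC1, and its call was lost without cDC2 replicate 3 (0.0506) and without all replicate 3 libraries (0.0511). Reads from mitochondrial DNA can also stem from its nuclear copies, and how reads with several matches were counted is not given in the sources used here.

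For scale, 34 of 79 cytosolic ribosomal protein genes passed in pDC against cDC1 (2 higher, 32 lower; median -0.36), 28 in pDC against cDC2 (2 higher, 26 lower; -0.29) and 8 in cDC2 against cDC1 (2 higher, 6 lower; -0.07). Nuclear-encoded subunits of oxidative phosphorylation, 78 tested, gave 31 (7 higher, 24 lower; -0.24), 16 (10 higher, 6 lower; 0.00) and 13 (1 higher, 12 lower; -0.21). Called shares were 43%, 35.4% and 10.1% of the cytosolic list and 39.7%, 20.5% and 16.7% of the oxidative phosphorylation list. Over all genes they were 48.6%, 45.8% and 24.4%. The medians of mitoribosome members, -0.19, -0.01 and -0.17, were closer in all 3 comparisons to those of the oxidative phosphorylation subunits than to those of the cytosolic ribosome. The difference between the lists was not tested.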

How the data were processed

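RNA from sorted splenic cDC1, cDC2 and pDC was sequenced as single reads of 75 bases from a stranded mRNA kit. The authors deposited 1 table of raw counts per gene, not normalized, with a column for each of the 9 libraries; STAR, SAMtools, MultiQC and featureCounts and the build mm10 are named in the submitters' processing notes, whereas versions, the strand setting and the handling of reads with several matches are not given in the sources used here. Every column was used. Groups and replicate numbers came from the labels.

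Of 39179 genes, 13819 passed edgeR's filterByExpr (minimum count 10). After TMM scaling all 9 libraries entered 1 fit with subset as the only term, and each contrast was given by the quasi-likelihood test of edgeR 4.0.16 in R 4.3.3. A call means a Benjamini-Hochberg adjusted p, taken over the whole table of tested genes, below 0.05. Each p measures the spread between these pools. The script was tested on simulated data with few changed genes and larger log2 differences than most members had. That run does not measure the error of the calls reported here. Alternatives were DESeq2 1.42.0, limma 3.58.1 (voom), other scalings, filters and thresholds, a replicate block and leaving out libraries. Same-numbered libraries share a date code in the labels. Their deviations from group means, on log2 of CPM plus 1, correlated at 0.266 to 0.543 over all genes in every pair. Over the members alone the correlations ran from -0.0531 to 0.383. Libraries with different numbers were not compared in this way. The numbers were taken to pair the samples in the replicate block, which was an alternative and not part of the main fit.

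Positions and exons came from GENCODE M21 (GRCm38), windows of 75 bases were matched between its transcripts, and promoters came from RefSeq. For Mrpl33 no annotation was matched, so it was left out of the levels per kilobase and wherever members with shared or overlapped exons were left out. The floor (3 counts) covers counting error only, whereas each SD and SE also holds the spread between pools. Named members were, per comparison, up to 8 with the largest rise and 8 with the largest fall past the threshold whose higher group averaged 100 counts or more, the 3 highest and 3 lowest per kilobase, those not tested, the Mrps18 paralogs, Mrpl12, Mrps12, Mrps30 and Mrps36, the 6 proteins with other names and up to 3 genes per direction in each other list. Mrpl17, Mrpl27, Mrps7, Mrps11, Mrpl46, Ptcd2, Eme1, Sars2 and mt-Nd1 were added after their values were seen. Members and lists, including the split by ancestry, were chosen with earlier results of these data known. Results on some genes are not reported here.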

Additional observations from a re-analysis of the deposited data

Results flagged for a closer look

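Of 4 genes named as pseudogenes of members, which the comparisons left out, 3 carried counts above the floor in every library, and Mrps36-ps2 had 0 to 51 counts. Mrpl23-ps1 had a mean of 26.6 CPM over the 9 libraries, with 22.9, 20.7 and 29.3 CPM in cDC1, 26.4, 22.3 and 23.0 CPM in cDC2 and 28.4, 29.8 and 37.0 CPM in pDC, while Mrpl23 itself did not exceed 0.751 CPM in any library. Mrpl48-ps had a mean of 12.7 CPM and Mrps36-ps1 of 7.95 CPM, the latter above Mrps36, which was at 0.850 to 3.18 CPM. None of the 3 passed the test in any comparison, with adjusted p of 0.0853 and 0.0741 for Mrpl23-ps1 and of 0.0666 and 0.0554 for Mrpl48-ps in pDC against cDC1 and cDC2 (edgeR). Whether reads of the parent genes were counted on these pseudogenes was not tested.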

How the results depend on the processing

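No called member changed direction under any of the 18 alternatives that kept the threshold, and 11 of 21 calls in pDC against cDC1, 8 of 12 in pDC against cDC2 and 2 of 12 in cDC2 against cDC1 were kept under all of these 18. The counts of calls moved more, and except where fewer samples, fewer members or a stricter threshold were used by construction, the cause was not tested. In pDC against cDC1 (21 members, 3 higher and 18 lower), the replicate block gave 35 (7 and 28), library size alone 7 and 11, a log2 difference of at least 1 gave 3 (0 and 3), an adjusted p under 0.01 gave 10 (1 and 9), leaving out all replicate 3 libraries 36 (7 and 29), and leaving out members with shared or overlapped exons, chosen after seeing the data, 13 (1 higher). In pDC against cDC2 (12; 5 and 7) the values were 20 (9 and 11) with the block, 1 (0 and 1), 7 (3 and 4), 24 (14 higher) without replicate 3 and 7 (3 and 4) without those members. In cDC2 against cDC1 (12; 0 and 12) library size alone gave 5 (1 and 4), a log2 difference of at least 1 gave 1 (0 and 1), an adjusted p under 0.01 gave 2 (0 and 2) and leaving out replicate 3 gave 19 (1 higher); the block gave 1 higher and changed no other count there by over 1.5 times. The test for any difference (23) gave 36 with the block, 11 at an adjusted p under 0.01 and 37 without replicate 3. Leaving out 1 library at a time gave 12 to 26 (1 to 4 higher, 11 to 23 lower), 8 to 15 (4 to 7 and 4 to 8), 2 to 14 (0 higher, 2 to 14 lower) and, for any difference, 18 to 26. The shares of all genes called moved too, here in the order of the pairwise comparisons. They were 58.6%, 55.5% and 35.6% with the block and 49.3%, 45.7% and 25.3% by library size alone. A log2 difference of at least 1 gave 29.4%, 27.8% and 13.1%, and an adjusted p under 0.01 gave 35.9%, 33.6% and 15.2%. Without replicate 3 they were 63%, 59.8% and 37.7%.

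The large-minus-small difference of median log2 differences in pDC against cDC1 (-0.02) was -0.082 with subunits by structure and -0.12 without members with shared exons, and -0.081 to 0.0056 leaving out 1 library. In pDC against cDC2 (-0.09) it was -0.0562 with limma-voom, -0.0497 without replicate 3, -0.0714 by structure and -0.122 to 0.0151 leaving out 1 library. In cDC2 against cDC1 (0.05) it was 0.0017 without members with shared exons and 0.01 to 0.07 leaving out 1 library. Members with fewer than 10 counts, of which Mrpl53 is the example, were beyond what this depth can compare.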
